A study of Mus musculus with 10 samples.

Results

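Interferon-stimulated genes are the genes that cells switch on when type I or type III interferons bind their receptors. The set described here holds such genes from outside the oligoadenylate synthetase (Oas) family. It was chosen by name, as 34 genes known from the literature to be induced by these interferons, and 31 of them could be measured among 22180 genes. The measured genes were Irf7, Irf9 and Stat2 (transcription factors), Ddx58, Ifih1, Dhx58, Ddx60, Zbp1 and Eif2ak2 (sensors of foreign nucleic acid), and Isg15, Uba7, Herc6, Trim25 and Usp18 (the system that attaches and removes the ISG15 protein). The others were Mx1, Mx2, Ifit1, Ifit2, Ifit3, Rsad2, Cmpk2, Bst2, Ifitm3 and Samd9l (antiviral effectors), and Parp9, Parp14, Xaf1, Rtp4, Trim30a, Ifi35 and Epsti1. Dtx3l and Ifi27l2a were not measured because their only probe sets (groups of probes read as 1 value) carry several gene symbols, and Ifi44 was not analysed here, as no probe set bears its symbol in the annotation used.

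Whole jejunum of mice, a 3 cm piece, supplied the RNA for 10 Affymetrix arrays. The 5 knockout arrays are from mice of genotype Pcyt1aLoxP/LoxP;VilCreERT2, in which tamoxifen activates a Cre recombinase driven by the villin promoter, active in the intestinal epithelium. The 5 control arrays are from Pcyt1aLoxP/LoxP mice without Cre. The enzyme encoded by Pcyt1a controls the rate of phosphatidylcholine synthesis. All were females of 10 to 12 weeks, all had tamoxifen for 5 days, and all ate a high-fat diet for 3 days, fasted overnight and were fed the same diet again for 2 hours. Because the controls lack Cre, an effect of active Cre and the loss of Pcyt1a cannot be told apart, and a piece of gut wall also holds cells in which villin is silent. The values are log2 of the deposited linear intensities. Array medians of the linear values ran from 45.8 to 48.1. Pcyt1a itself lay at 7.24 to 7.66 in the knockout arrays and at 8.95 to 9.51 in the controls. The epithelial markers Epcam, Vil1 and Fabp2 lay between 11.67 and 13.66 in every array, far above the median gene at about 5.8. Nothing in the labels says outright that each array is a separate mouse, so p-values rest on the spread from array to array, which may be technical in part.

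In the interferon pathway, nucleic acid sensors start the production of interferons. Type I interferons act through Ifnar1 and Ifnar2 on nearly all cells, while type III interferons act through Ifnlr1 and Il10rb mainly on epithelia such as that of the gut. Both receptors activate Stat2, which joins Irf9 in a complex that binds the interferon-stimulated response element in the promoters of the induced genes. Several of those genes, such as Irf7, Stat2, Irf9 and the sensors, feed back into the pathway.

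Every one of the 31 measured genes had a higher mean in knockout than in control, and 0 passed an adjusted p of 0.05 in limma's test (Benjamini-Hochberg over all genes). Differences ran from 0.17 (Irf9) to 1.51 (Ddx60) on the log2 scale, with a median of 0.85, against a median of -3.54e-04 over all 22180 genes. The adjusted test called 76 genes in all, or 0.343% of those tested. That count moved between 11 without knockout 2 and 268 without knockout 1. At an unadjusted p under 0.05, 22 of the 31 were higher in knockout and 0 were lower, where 5.82% of all genes were higher at that p. At an adjusted p under 0.1, 6 of the 31 were higher (Epsti1, Rtp4, Xaf1, Bst2, Isg15 and Parp14), where 0.528% of all genes were. A difference above 0 was found for 49.9% of all genes, and 11 of the 31 differed at least 2-fold, as 0.289% of all genes did. The set was picked with results of these arrays known, so these counts are a description and no test of the set was made. Nor are the genes independent of each other, since all were read on the same 10 arrays.

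**Figure D1:**
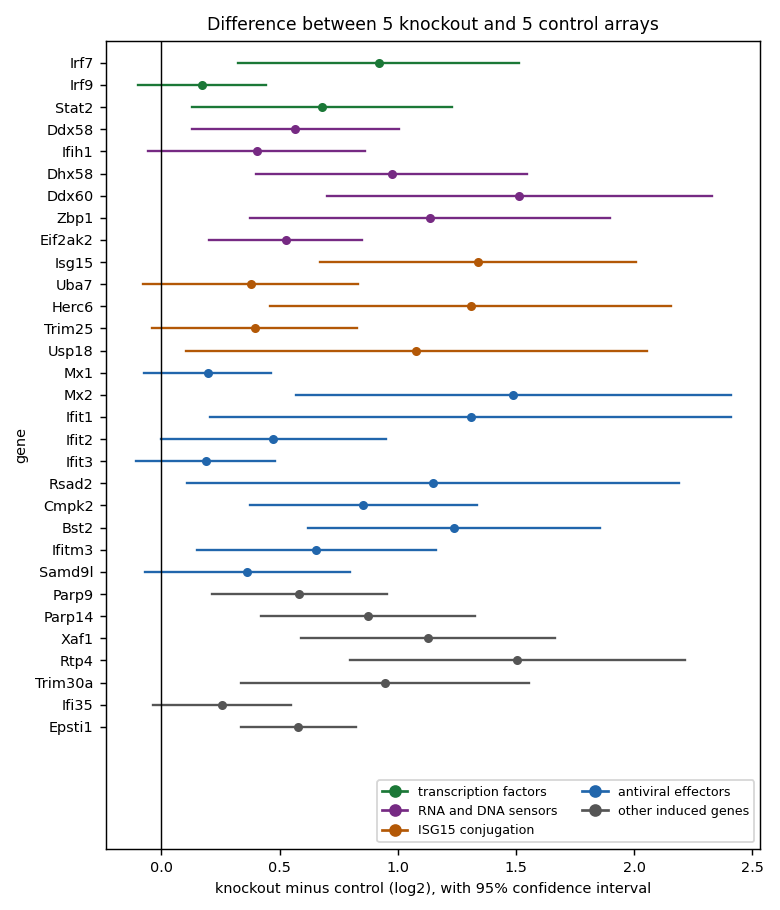
Difference between the means of 5 knockout and 5 control arrays for each of the 31 genes, on the log2 scale (x axis), coloured by role. Points are differences and lines are 95% confidence intervals from limma. All points lie above 0, and 22 of the 31 intervals do so too.

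The response element is the sequence feature these genes are best known to share, so their promoters were read from RefSeq (build GRCm38.p6), 250 bases before the start of transcription to 50 after it. Of the 31 genes, 23 were matched by symbol. The search looked on both strands for the core of the element, GAAANNGAAA, which reads TTTCNNTTTC on the other strand. At least 1 match was present in 12 of the 23 genes (52.2%), against 1079 of 27025 genes (3.99%) with a promoter in the table. The genes were chosen as interferon-induced, so this share describes that choice and says nothing about the arrays. Matches may overlap, and 6 of the 12 genes held more than 1. In 8 genes a match lay before the start, and in the other 4 (Ddx58, Ifih1, Eif2ak2 and Ifitm3) it lay wholly after it. The stretches around these matches in the 8 genes are shown 5′ to 3′ on the strand of the gene, with every match in capitals. The complex that holds Stat2 and Irf9 is known to act on elements of this kind, but its action at these sites was not tested.

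Isg15, chr4:156200845-156200914, minus strand: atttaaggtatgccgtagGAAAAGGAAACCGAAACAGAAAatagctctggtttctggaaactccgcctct
Ifit1, chr19:34640774-34640843, plus strand: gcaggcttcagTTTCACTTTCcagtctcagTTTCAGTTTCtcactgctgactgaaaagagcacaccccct
Ifit3, chr19:34583373-34583446, plus strand: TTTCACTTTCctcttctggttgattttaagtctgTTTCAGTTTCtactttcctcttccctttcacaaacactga
Rsad2, chr12:26456533-26456602, minus strand: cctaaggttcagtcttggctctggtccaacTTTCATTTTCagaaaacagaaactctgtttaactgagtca
Bst2, chr8:71537557-71537626, minus strand: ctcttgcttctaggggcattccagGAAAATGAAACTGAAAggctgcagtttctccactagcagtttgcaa
Ddx60, chr8:61928034-61928086, plus strand: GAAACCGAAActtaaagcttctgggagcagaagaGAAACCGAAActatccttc
Trim30a, chr7:104465194-104465259, minus strand: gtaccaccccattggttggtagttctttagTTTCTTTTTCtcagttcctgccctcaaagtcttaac
Stat2, chr10:128270248-128270315, plus strand: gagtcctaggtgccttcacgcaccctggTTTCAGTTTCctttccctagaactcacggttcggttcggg

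The Isg15 promoter carries 3 overlapping matches in 1 run, and Ifit1, Ifit3, Bst2 and Ddx60 carry 2 each. The second motif searched, TTCNNNGAA, is the gamma-activated site, bound after interferon gamma, and is the same on both strands. It was present in 5 of the 23 genes (21.7%) and in 9.55% of all genes with a promoter. A match is a description of letters and no proof of binding. The 12 genes with a response element match had a median difference of 0.81 (0.19 to 1.51) and the 11 without a match had 0.47 (0.17 to 1.31), so the ranges overlapped almost entirely. Xaf1 and Herc6, at 1.13 and 1.31, had no match in this window, and Ifit3, with 2 matches, was at 0.19.

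Among the 3 transcription factors, Irf7 and Stat2 stood higher in knockout than Irf9 did. Irf7, the factor that amplifies interferon production, lay at 9.76, 9.54, 9.27, 8.99 and 10.67 in knockouts 1 to 5. In controls 1 to 5 it lay at 8.75, 8.79, 8.18, 8.71 and 9.20. The groups overlapped only through knockout 4, and the difference was 0.92 (SE 0.27, limma adjusted p = 0.194). Stat2 differed by 0.68 (SE 0.25), with 3 knockout arrays above the highest control. Irf9, the DNA-binding partner of Stat2, spanned 8.90 to 9.53 over the knockouts, and the controls spanned 8.90 to 9.34. Its difference of 0.17 (SE 0.12) was the smallest of the 31.

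All 6 sensors had higher means in knockout, and 5 of them had an unadjusted p under 0.05. Ddx60, a helicase that aids RIG-I, lay at 9.19, 8.48, 8.18, 8.17 and 10.19 in knockouts 1 to 5 and at 7.38, 6.88, 6.77, 7.44 and 8.16 in controls 1 to 5. The groups did not overlap, but knockouts 3 and 4 stood only just above control 5, and the difference was 1.51 (SE 0.37, limma adjusted p = 0.116), or 2.86-fold. Dhx58, which encodes LGP2, a modulator of the RNA sensors, lay at 7.30, 7.09, 6.62, 7.12 and 8.41 in the knockouts. In the controls it lay at 6.26, 6.25, 6.13, 6.29 and 6.75, and knockout 3 fell below control 5. Eif2ak2, the kinase PKR that halts translation on binding double-stranded RNA, lay at 9.04, 8.78, 8.55, 8.82 and 9.43 in knockout and at 8.42, 8.30, 8.25, 8.35 and 8.66 in control. The differences were 0.97 (SE 0.26) for Dhx58 and 0.53 (SE 0.15) for Eif2ak2, and in both genes 4 of 5 knockout arrays lay above every control. Zbp1, a sensor of Z-form nucleic acid that can trigger cell death, differed by 1.14 (SE 0.35). Its values split the knockout group, with 9.003, 8.33 and 9.47 in knockouts 1, 2 and 5 against 7.42 and 7.52 in knockouts 3 and 4, while the highest control stood at 7.69. Ddx58, which encodes RIG-I, and Ifih1, which encodes MDA5, are the cytoplasmic RNA sensors that signal through Mavs. They had smaller differences, of 0.57 (SE 0.20) and 0.40 (SE 0.21).

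In the ISG15 system Isg15, Herc6 and Usp18 had larger differences than Uba7 and Trim25, and that gap was not tested. Isg15, a ubiquitin-like protein that is coupled to other proteins, lay at 8.37, 8.10, 7.43, 7.79 and 9.49 in knockouts 1 to 5 and at 6.65, 6.70, 6.99, 6.77 and 7.37 in controls 1 to 5. Every knockout array was above every control, narrowly so for knockout 3 against control 5, and the difference was 1.34 (SE 0.31, limma adjusted p = 0.0914), or 2.53-fold. Herc6, the main ISG15 ligase of the mouse, differed by 1.31 (SE 0.39), and Usp18, which removes ISG15 and also dampens the type I receptor, by 1.08 (SE 0.45). Usp18 spanned 7.24 to 10.06 in the knockouts against 7.02 to 8.23 in the controls, so the groups overlapped widely. Uba7, the enzyme that activates ISG15, and Trim25, a ligase that also acts on RIG-I, were at 0.38 (SE 0.21) and 0.39 (SE 0.20).

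The antiviral effectors covered a wide range of differences, from 0.19 to 1.49. Bst2, or tetherin, which holds budding virus at the cell surface, lay at 8.37, 8.35, 7.69, 7.98 and 9.66 in knockouts 1 to 5 and at 7.14, 7.05, 7.39, 7.197 and 7.07 in controls 1 to 5. The groups did not overlap, the controls were tightly grouped, and the difference was 1.24 (SE 0.28, limma adjusted p = 0.0903). Cmpk2, a mitochondrial nucleotide kinase that neighbours Rsad2 in the genome, lay at 8.78, 9.21, 9.25, 8.99 and 9.96 in knockout and at 8.05, 8.48, 8.01, 8.94 and 8.45 in control. It differed by 0.85 (SE 0.22), and knockout 1 was the only knockout array below the highest control. Mx2, a dynamin-like GTPase, differed by 1.49 (SE 0.42), and knockout 5, at 8.18, stood far above the other knockouts at 5.70 to 6.44. Mx2 is dim, and it lay above the median gene in only 5 of the 10 arrays. Its relative Mx1 lay below the median gene in all 10 arrays and differed by 0.20 (SE 0.12). Rsad2, or viperin, which makes a chain-terminating nucleotide, and Ifit1, which binds viral RNA ends, differed by 1.15 (SE 0.48) and 1.31 (SE 0.51). In both, only knockouts 1 and 5 stood above the highest control. Ifit2, a dim probe set, was at 0.47 (SE 0.22), and Ifit3 was at 0.19 (SE 0.14). Ifit3 spanned 7.55 to 7.83 in the knockouts against 7.01 to 7.77 in the controls, and it is the only gene of the 31 with a smaller SD in knockout than in control. Ifitm3, a membrane protein that blocks viral fusion, differed by 0.65 (SE 0.23), and Samd9l, a restriction factor, by 0.36 (SE 0.20). Ifit1, Ifit3 and Trim30a have close relatives in the mouse genome that their probes may not tell apart.

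The other induced genes held 6 of the 9 genes in which all knockout arrays lay above all controls. Those 9 were Epsti1, Rtp4, Xaf1, Parp14, Parp9, Trim30a, Bst2, Isg15 and Ddx60, and 1.20% of all genes were separated in that way. Ddx60 overlapped after the arrays were shifted to a shared median, which left 8 genes, and Ddx60, Xaf1 and Parp9 overlapped after quantile normalization, which left 6. The share of all genes after either rescaling is not given here. Epsti1 lay at 8.92, 8.82, 8.80, 8.72 and 9.34 in knockouts 1 to 5 and at 8.37, 8.39, 8.33, 8.28 and 8.35 in controls 1 to 5. Its difference of 0.58 (SE 0.11) was modest, but the controls differed little, and its limma adjusted p of 0.0545 was the smallest of the set. Rtp4, a chaperone of receptors that also restrains flaviviruses, lay at 9.26, 8.77, 8.58, 8.44 and 10.03 in knockout and at 7.51, 7.04, 6.88, 7.71 and 8.41 in control. It differed by 1.51 (SE 0.33, limma adjusted p = 0.0793), or 2.84-fold, with control 5 close to knockout 4. Xaf1, an antagonist of the apoptosis inhibitor XIAP, lay at 8.07, 7.80, 7.63, 7.43 and 8.95 in knockout and at 6.72, 6.92, 6.51, 6.77 and 7.32 in control. Its difference was 1.13 (SE 0.25, limma adjusted p = 0.0842), and again the closest arrays were knockout 4 and control 5. Parp14, an ADP-ribosyltransferase, lay at 9.88, 9.99, 9.97, 9.85 and 10.89 in knockout and at 9.17, 9.13, 8.80, 9.68 and 9.43 in control. It differed by 0.87 (SE 0.21, limma adjusted p = 0.0992), and its knockout values, apart from knockout 5, lay between 9.85 and 9.99. Parp9, which works with Dtx3l, differed by 0.58 (SE 0.17), Trim30a by 0.94 (SE 0.28) and Ifi35 by 0.26 (SE 0.13). Trim30a is dim too, above the median gene in only 3 of the 10 arrays. Ifi35 is the only gene of the set with more than 1 usable probe set, and its second, dimmer probe set differed by 0.14 (SE 0.13).

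**Figure D2:**
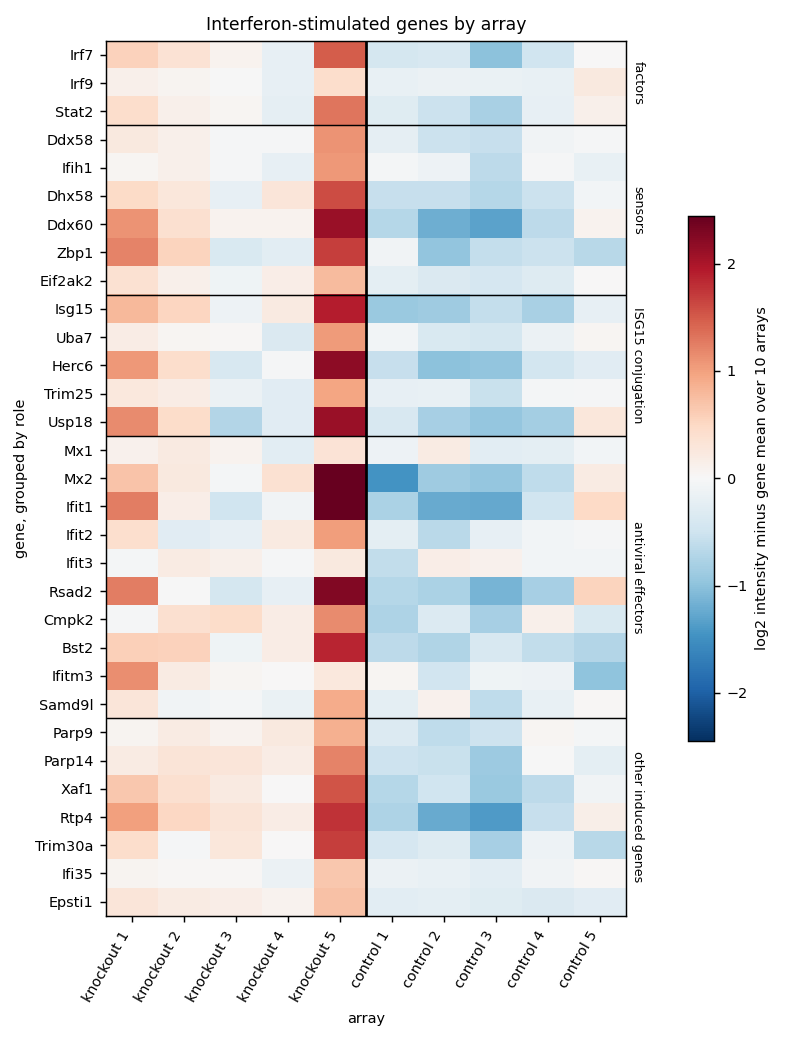
Log2 intensity of each of the 31 genes minus its own mean over the 10 arrays (colour), with genes in rows by role and arrays in columns, knockouts left of the black line. Knockout 5 holds the highest knockout value in 30 of the 31 genes, and control 5 the highest control value in 19.

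Arrays of 1 genotype also differed widely among themselves. Knockout 5 had the highest value of its group in 30 of the 31 genes, with Ifitm3, where knockout 1 was highest, as the exception. Knockouts 5 and 1 were the highest pair in 25 genes, and knockout 3 or 4 was the lowest in 26. Knockout 5 exceeded the mean of the other 4 knockouts by a median of 1.08 on the log2 scale, up to 2.24 in Ifit1. Among the controls, control 5 was highest in 19 genes and control 3 lowest in 20. The mean over the 31 genes, after each gene was centred on its mean over 10 arrays, was 0.53, 0.23, -0.04, -0.01 and 1.33 in knockouts 1 to 5. In controls 1 to 5 it was -0.44, -0.52, -0.65, -0.32 and -0.09. The lowest knockouts therefore stood close to control 5.

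**Figure D3:**
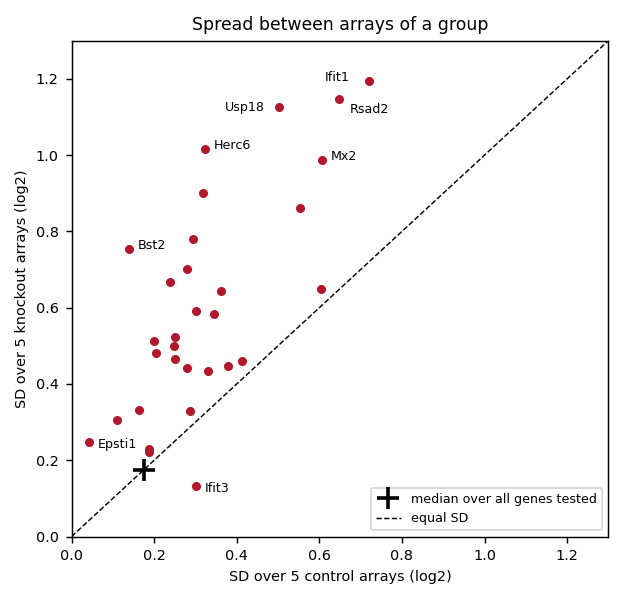
SD over the 5 control arrays (x axis) and over the 5 knockout arrays (y axis) of log2 intensity, with 1 point for each of the 31 genes. The dashed line marks equal SDs and the cross the medians over all genes tested (0.18 and 0.17). All points but Ifit3 lie above the line. The knockout SDs include knockout 5, the highest knockout in 30 of the 31 genes.

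The SD was larger over knockout than over control arrays in 30 of the 31 genes, where that held for 49.3% of all genes. The median SD was 0.52 in knockout and 0.29 in control, against 0.17 and 0.18 over all genes. The ratio of the SDs had a median of 1.86 and ran from 0.438 in Ifit3 to 5.44 in Bst2 and 5.91 in Epsti1. No test of the spread was made, and because the genes share arrays these SDs repeat the same few samples. Knockout 5, the highest knockout in 30 of the 31 genes, enters every knockout SD, and SDs without it are not given here. Without knockout 5 all 31 genes kept a higher mean in knockout, with a median difference of 0.66. In 12 genes the log2 difference then shrank by more than 1.5 times. Uba7 went to 0.17, Ifih1 to 0.19, Samd9l to 0.18, Trim25 to 0.20, Ifi35 to 0.12 and Irf9 to 0.08. Ddx58 went to 0.36, Ifit2 to 0.28, Stat2 to 0.44, Usp18 to 0.69, Rsad2 to 0.73 and Ifit1 to 0.86. Among the other arrays left out in turn, only control 1 moved a gene that far, with Ifit3 at 0.06 without it. With knockout 5 left out, Epsti1, at 0.47, and Bst2, at 0.93, passed the adjusted test (limma adjusted p = 0.0385 and 0.0301). That fit called 59 of all genes. Leaving out an array can only keep or raise the number of separated genes. Without control 5, 16 genes in place of 9 had all knockout arrays above all controls, and without knockout 3 it was 14. The share of all genes separated with an array left out is not given here, so these counts have no background beside them. Pcyt1a was at 7.58, 7.47, 7.58, 7.24 and 7.66 in knockouts 1 to 5, so knockout 5 had the highest and knockout 4 the lowest residual value.

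The Oas family, interferon-induced enzymes that make the activator of RNase L, also stood highest in knockouts 5 and 1. Its list mean was 1.28 in knockout 5 and 0.66 in knockout 1, and 11 of 11 measured genes had higher means in knockout. Oas1g rose by 2.19 (SE 0.38, limma adjusted p = 0.0315), and Oasl2 was at 1.45 (SE 0.28, limma adjusted p = 0.0561). That single call of the family was lost with trend and robust fitting, with a minimum change of 1.5-fold, with the ileum genes as a covariate, and without knockout 2, knockout 4 or any of controls 1 to 4.

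**Figure D4:**
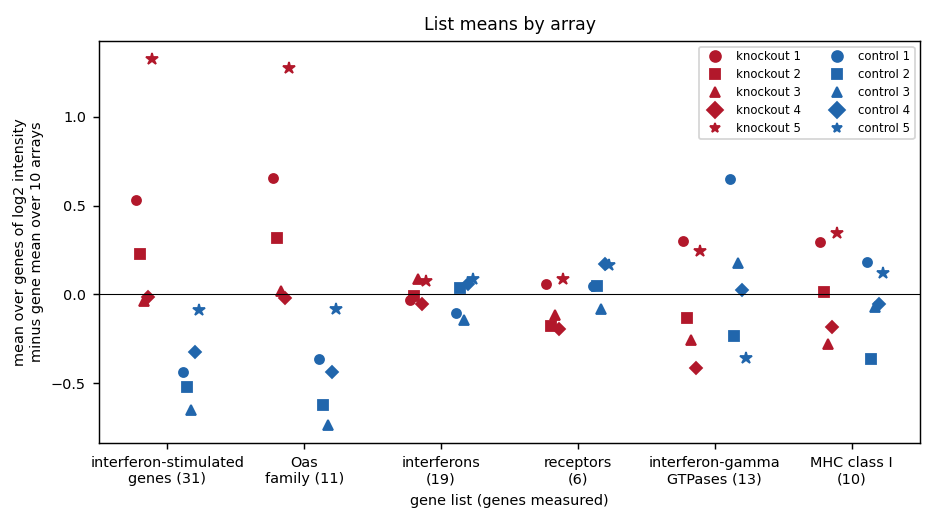
Mean over the genes of 6 lists of log2 intensity minus the gene's mean over 10 arrays (y axis), with 1 symbol for each array, knockouts in red and controls in blue. Knockout 5 stands at 1.33 for the 31 interferon-stimulated genes and 1.28 for the Oas family, and between 0.07 and 0.34 for the other 4 lists.

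Genes further up the pathway were read next, and their difference from the 31 was not tested. Of 19 measured interferon genes 0 were called by limma, with 1 at an unadjusted p under 0.05, and their median difference was 0.0044. Ifna11, the gene at that p, was at 0.39 (SE 0.13), but it lay at only 1.77 to 2.72 in all arrays, far below the median gene. Ifna14 was at -0.23 (SE 0.12). Named for their role after the values were seen, Ifnb1 was at 0.07 (SE 0.11), Ifnl2 at 0.03 (SE 0.10) and Ifnl3 at -0.0038 (SE 0.11). Interferon genes are near-identical copies in part, and Ifnb1 lay at 3.22 to 3.73 in all arrays, well below the median gene, so low transcript levels may not be detectable on these arrays. The 6 receptor genes had a median of -0.12, with Il10rb at -0.19 (SE 0.08) and Ifnlr1, the type III receptor, at -0.27 (SE 0.13). Of the 7 measured kinases and transcription factors, Jak2 was at -0.36 (SE 0.12) and Irf8 at 0.27 (SE 0.13). In these lists limma called 0 genes, with 1 receptor and 1 kinase at an unadjusted p under 0.05, both lower in knockout. Among 10 sensing and adaptor genes, Myd88, the adaptor of most Toll-like receptors, was at 0.62 (SE 0.12, limma adjusted p = 0.0600) and Tlr3, a receptor for double-stranded RNA, at 0.59 (SE 0.18). Of the 7 measured brakes on the pathway, Socs3 was at 0.54 (SE 0.16) and Adar, an RNA editor that is itself interferon-induced, at 0.43 (SE 0.15). The sensing list had 3 and the brakes had 2 genes at an unadjusted p under 0.05, all higher in knockout, and limma called 0 of either. Both list means were highest in knockouts 5 and 1, at 0.25 and 0.17 for the sensing genes and 0.34 and 0.09 for the brakes.

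Genes induced mainly by interferon gamma went in both directions. Of 13 measured GTPases of the Gbp and Irg families, 8 had lower means in knockout and 5 higher, with a median of -0.11. Gbp8 was at -0.67 (SE 0.22) and Gbp4 at -0.47 (SE 0.16), and limma called 0, with 1 higher and 3 lower at an unadjusted p under 0.05. Of 10 MHC class I and antigen processing genes, 7 were higher with a median of 0.03, and limma called 0, with 1 at an unadjusted p under 0.05. Among the knockouts both lists were highest in knockouts 1 and 5, at 0.30 and 0.24 for the GTPases and 0.30 and 0.34 for the MHC class I genes. The highest array for the GTPases was control 1, at 0.65, and knockouts 5 and 1 were the highest of all 10 for MHC class I. Tap1, the peptide transporter, was at 0.57 (SE 0.25) and Erap1 at -0.14 (SE 0.10). The difference between these lists and the 31 was not tested.

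Markers of other cells and of gut position were read beside these values. In bulk tissue, fewer cells of a type and less RNA per cell cannot be told apart. All 9 T and NK cell markers had lower means in knockout (median -0.74, 4 at an unadjusted p under 0.05, 0 called by limma). Cd8a was at -0.79 (SE 0.23) and Cd3e at -0.76 (SE 0.26). Their summed linear intensity was 514 to 1593 in knockout and 1044 to 2575 in control, and knockout 5, at 934, ranked 8 of 10. Of 7 measured plasmacytoid dendritic cell markers, 5 were higher with a median of 0.02, and their sum was 1808 to 2093 in knockout and 1065 to 2318 in control. Klk1, at 9.34 to 10.88, makes up most of that sum, together with Ly6d (9.73) in knockout 5, so the sum says little about the dimmer markers. In that list Ly6d, also found on B cells, was at 1.25 (SE 0.45), and Siglech, a defining gene of these cells, at 0.19 (SE 0.15), with 5.25 to 5.71 in knockout and 4.85 to 5.70 in control. For the 8 macrophage and dendritic cell markers the sums were 860 to 1679 in knockout and 634 to 1901 in control, with a median difference of -0.07. B and plasma cell markers summed to 967 to 1709 and 525 to 1893, and 4 of 5 had higher means in knockout. That sum mainly follows Jchain, which lay at 8.47 to 10.70, where no other marker of the list exceeded 7.34. Knockout 5 held the highest value of the 10 arrays for Ms4a1 (6.62), Cd79a (7.34) and Mzb1 (6.51), but not for Cd79b (6.53) or Jchain (9.39). The 5 neutrophil markers summed to 154 to 190 and 165 to 182, the 4 endothelial markers to 387 to 656 and 425 to 569, and the 5 smooth muscle markers to 601 to 918 and 605 to 2205, each with 0 called. At an unadjusted p under 0.05 limma picked 0 genes of the macrophage, B cell, neutrophil, endothelial and smooth muscle lists and 1 of the plasmacytoid list, Ly6d. All 5 fibroblast markers had higher means in knockout (median 0.55, 0 called by limma, 3 at an unadjusted p under 0.05). Their sum was highest in knockout 5, at 1623, with the controls at 508 to 1203.

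Ileum genes, listed after the data were seen, also separated the arrays. The mean over Fabp6, Slc10a2, Slc51a and Fgf15 was -1.30, 1.93, 0.96, 1.42 and 1.94 in knockouts 1 to 5 and -1.22 to -0.30 in the controls. Knockout 5 was thus highest in both sets, level with knockout 2 in the ileum genes, whereas knockout 1, second highest in the interferon-stimulated genes, was lowest of all 10 arrays in the ileum genes. Lct, the lactase of the upper small intestine, was at -0.72 (SE 0.15, limma adjusted p = 0.0640), with every knockout array below every control. It was picked from 8 epithelial markers, of which 5 had lower and 3 higher means in knockout (median -0.02, 0 called by limma). Of these 8, Lct alone had an unadjusted p under 0.05. With the ileum mean as a covariate, 30 of the 31 genes kept a positive difference, with a median of 0.66, and 0 were called. Without the covariate 0 were called as well. All 4 ileum genes had higher means in knockout, so the covariate is tied to genotype and cannot separate genotype from gut position. The part that these cells and the gut position play in the values of the 31 genes was not tested.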

How the data were processed

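The authors deposited linear intensities of 10 arrays, and the submitters' processing notes name RMA and Affymetrix Expression Console 1.4.1.46. RMA corrects background, aligns the arrays' distributions and summarises probes, so a shift shared by most genes would not show. Detection calls were not used here, and precision is limited by how few arrays there are. Groups came from the sample titles, and 0 columns were left unmapped. Values were log2-transformed. Of 41345 probe sets, 23521 had 1 symbol in GEO's platform annotation, 1814 several and 16010 none. The brightest probe set per gene by its mean over all arrays gave 22180 genes. Knockout was set against control in R 4.3.3 by limma 3.58.1 (lmFit, eBayes, Benjamini-Hochberg over all genes, adjusted p under 0.05), after a test on simulated data. Genes and lists were chosen with earlier results of these data known. All measured genes of the set are named, the 10 with the smallest p are given array by array, and the 2 genes with the smallest p represent each other pathway list. Genes or array values given outside that rule, such as markers, were chosen after their values were seen.

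Alternatives were a shared median, quantile normalization, omission of the dimmest 30% of genes, averaged probe sets, trend and robust fitting, array weights, a replicate block, each array left out in turn, other thresholds (adjusted p under 0.1, unadjusted p under 0.05, a minimum change of 1.5-fold) and, added after the data were seen, the ileum mean as a covariate.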

Additional observations from a re-analysis of the deposited data

Results flagged for a closer look

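In 11 of 64 groups of 5 arrays checked, 1 array stood apart from the rest by Dixon's gap ratio, the gap to the nearest array divided by the range (critical value 0.71). Chance alone gives about 1 in 20 groups, and the genes are not independent. Knockout 5 was the high array in 6 genes: Parp14 (ratio 0.869, 10.89 against 9.99 for the next array), Parp9 (0.792), Ddx58 (0.757), Ifih1 (0.751), Trim30a (0.736) and Ifi35 (0.719). Control 5 was the high array in Irf9 (0.877, 9.34 against 8.96), Rsad2 (0.742, 7.46 against 6.21) and Dhx58 (0.733). Control 3 was the low array in Ifih1 (0.760), and knockout 1 was the high array in Ifitm3 (0.787, 9.75 against 8.87). The mean over the 31 genes passed the limit in neither group.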

How the results depend on the processing

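All 31 genes kept a positive difference under every alternative that measured them except Ifit3 with the ileum covariate (-0.0013, limma adjusted p = 0.999). Of 557 values recomputed for single genes under 18 settings, 11 newly passed the adjusted test, 545 stayed on their side of it and 1 turned its sign. The count called among the 31, 0 in limma's test, was 1 without the dimmest 30% of genes and with trend and robust fitting (Epsti1 both times), 3 with array weights (Epsti1, Rtp4 and Xaf1), 6 at an adjusted p under 0.1 and 22 at an unadjusted p under 0.05. With the replicate block it was 3 (Rtp4, Ddx60 and Xaf1). Over all genes, same-numbered arrays had correlations of -0.13 to 0.12, which does not pair them, although number 5 was highest and number 3 lowest in both groups for the mean over the 31. With 1 array left out it was 0 to 2, the median difference 0.66 to 0.92 and the separated genes 9 to 16 (14 without knockout 3), a count that leaving out arrays cannot lower. It was 8 with a shared median and 6 with quantile normalization. Calls over all genes, 76, became 102 without the dimmest 30% of genes, 84 with trend and robust fitting and 142 with array weights. They numbered 27 with the replicate block, 261 at an adjusted p under 0.1 and 2678 at an unadjusted p under 0.05. A minimum change of 1.5-fold and the ileum covariate left 1 each. With 1 array left out they ran from 11 (without knockout 2) to 268 (without knockout 1), with 59 without knockout 5. The Oas calls, 1, became 2 without the dimmest genes, with array weights, with the replicate block and at an adjusted p under 0.1, 7 at an unadjusted p under 0.05, 0 with trend and robust fitting, a minimum change or the ileum covariate, and 0 to 2 with 1 array left out. Sensing genes, 0 called, had 1 without the dimmest genes and at an adjusted p under 0.1, 3 at an unadjusted p under 0.05 and 0 to 1 with 1 array left out. At an unadjusted p under 0.05 the interferons, receptors, kinases and factors, and MHC class I genes had 1 each, the brakes had 2 and the interferon-gamma GTPases 4. The cause of these changes was not tested.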

Other observations

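Ranked by how far knockout 5 exceeded the mean of the other 4 knockouts, a description of 1 array with no test, 17 of the 31 genes and 7 of the 11 Oas genes were among the top 100 of 22180 genes, and 10 and 5 were among the top 40. Knockout 5 was singled out because it was highest in 30 of the 31 genes, so their place in this ranking restates that choice. The genes at the head of that ranking were Nos2, the inducible nitric oxide synthase (3.70 on the log2 scale), Hamp, the iron hormone hepcidin (2.61), the ileal bile acid transporter Slc10a2 (2.55), the Ifit relative Ifit1bl1 (2.44) and Ly6d (2.41). Cxcl13, a chemokine that attracts B cells (2.28), and the B cell genes Cr2 (1.48) and Ms4a1 (1.462) were also among the top 40, as was the epithelial oxidase Duox2 (1.57).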
